A study of Rattus norvegicus with 18 samples.

Results

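The comparison described here sets the liver of rats that had undergone sympathectomy together with partial hepatectomy (SPH, 3 arrays) against the liver of sham-operated rats (sham, 3 arrays), both taken 2 h after the operation. These 6 arrays, chosen by their titles, are part of 18 hybridised with Affymetrix Rat Genome 230 2.0 probes. The other 12 hold partial hepatectomy with the nerves left in place (PH), hepatectomy with vagotomy (VPH), hepatectomy with total liver denervation (TDPH) and unoperated liver (normal, 0 h), 3 arrays each. All animals were 12-week-old Sprague-Dawley rats, and the tissue was the middle of the right hepatic lobe after the blood had been flushed out through the portal vein. The sources used here do not give the animals' sex, the number of animals behind a group or the interval between nerve section and hepatectomy. Replicates are labelled as technical ones, so that standard errors (SE) and p-values measure the spread between arrays, of which each group has n = 3. This spread was estimated over all 6 groups together.

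No group was denervated without hepatectomy. Sham rats kept both the whole liver and its nerves, and the lost liver tissue and the cut nerves therefore cannot be told apart in SPH against sham. SPH against PH, in which both groups had lost liver tissue, is the test of the difference between hepatectomy with and without sympathectomy. In it, a changed response to hepatectomy cannot be told apart from an effect of the nerve section or its surgery alone. Differences between the tissue samples themselves also enter it, since the replicates are labelled as technical ones.

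After removal of part of the liver, the remaining hepatocytes leave their resting state and regrow the organ, and the earliest step of this priming phase is the transcription of immediate early genes, which need no new protein synthesis. Sympathetic fibres reach the liver along the hepatic artery and portal vein and release noradrenaline, which in hepatocytes drives glycogen breakdown and glucose output. Kupffer cells, the resident macrophages, supply cytokines such as TNF and IL-6 that act on hepatocytes in the same phase.

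The values are signal intensities, each array scaled to a trimmed mean of 500, and differences are given as log2(signal + 12), SPH minus sham unless another pair is named. Of 31042 probe sets without controls, 22125 were bright enough to be tested, and they represent 11478 named genes. A gene is said to have risen or fallen only where limma's adjusted p was under 0.05 and the difference was at least 1, a 2-fold change. By that rule 432 genes rose, 3.76% of those tested, and 328 fell, 2.86%. Among the rises, 110 were at least 4-fold and 8 at least 16-fold, while 36 falls were at least 4-fold and 2 at least 16-fold. The median difference over all tested genes was -0.095. In probe sets the calls were 774 higher (3.5%) and 777 lower (3.51%). That split was 909 and 627 with quantile normalization, 908 and 605 with arrays centred on their median, and 459 and 236 with a pseudocount of 90 in place of 12. Of the genes that rose, 100 lay below the 40th percentile of the array on all 3 sham arrays, and of those that fell, 81 lay there on all 3 SPH arrays. For these the size of the log2 difference depends on the pseudocount.

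The liver identity of the tissue was checked on 20 hepatocyte markers, of which 0 were called. Their summed signal was 1070900, 1142423 and 1056990 on the SPH arrays and 940377, 920457 and 884982 on the sham arrays, with a median difference of 0.23 that was between 0.01 and 0.31 under the other scalings. Albumin (Alb) read 56917, 64499 and 55991 in SPH and 49461, 47261 and 42199 in sham (0.35, SE 0.08). As a sign of RNA quality, Actb signal at the 3' end over that at the 5' end, a ratio that rises as RNA breaks down, was 1.7 to 1.87 on SPH arrays and 2.11 to 2.25 on sham arrays. Its part in the results was not tested.

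The 3 SPH arrays differed more among themselves than those of any other group. Of 6443 bright genes, 89 (1.38%) spanned more than 2-fold across the SPH arrays, against 13 across PH arrays, 9 across TDPH, 8 across VPH, 8 across sham and 1 across normal arrays. Pairs of SPH arrays correlated at 0.9493 to 0.9505 over the tested probe sets and pairs of sham arrays at 0.9603 to 0.9614. VPH arrays 2 and 3 were closer to each other (0.9803) than any other pair within a group. Of the 89 genes, 27 were among the calls, with 15 risen and 12 fallen. Because the spread was estimated over all groups together, the standard errors can be too small for genes that vary among the SPH arrays.

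Several of the 89 belong to a small set of genes with sex-biased expression in rat liver, a set put together after the values had been seen. Cyp2c11, the main male cytochrome P450, read 23358, 35678 and 39051 on SPH arrays 1, 2 and 3, against 32484, 33239 and 31556 on the sham arrays. Cyp2c12, its female counterpart, read 48628, 37282 and 24060 in SPH and 42723, 42589 and 40675 in sham. Both were bright on all 18 arrays, but Cyp2c11 spanned less than 2-fold across the SPH arrays and is not among the 89. On SPH array 1 the male-biased Cyp2a2 was at 3295, against 9715 and 11816 on the other SPH arrays and 12126 to 12315 on the sham arrays. The Y-linked gene Eif2s3y was at 352 on the same array, against 1279 and 1099 on the other SPH arrays and 912 to 1157 on the sham arrays, and the Y-linked Rps4y2 was lowest there too (301, 336 and 408, against 334 to 569 in the other groups). The Y-linked Uty was lowest on SPH array 2 (756, 548 and 895, against 512 to 1281 in the other groups). The female-biased A1bg read 11558, 3959 and 2420 in SPH, below 25255, 25592 and 24631 in sham. It fell by 2.39 with all arrays, by 3.02 without SPH array 1 and by 1.89 without SPH array 3. Cux2, a female-biased transcription factor, fell with them, at 151, 80 and 104 in SPH against 291, 222 and 259 in sham (-1.15, SE 0.2). Between whole groups the male-biased Obp3, of a multigene family, also varied, at 3134 to 4126 in normal and VPH liver and 14428 to 24771 in sham, PH and TDPH liver. Cyp2c11, at 20202 to 20446 in normal and VPH liver, was likewise lower there than in sham, PH and TDPH liver. So was Cyp2a2, at 4958 to 5873 in normal and VPH liver. Whether the animals differed in sex or hormone state was not tested.

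**Figure D1:**
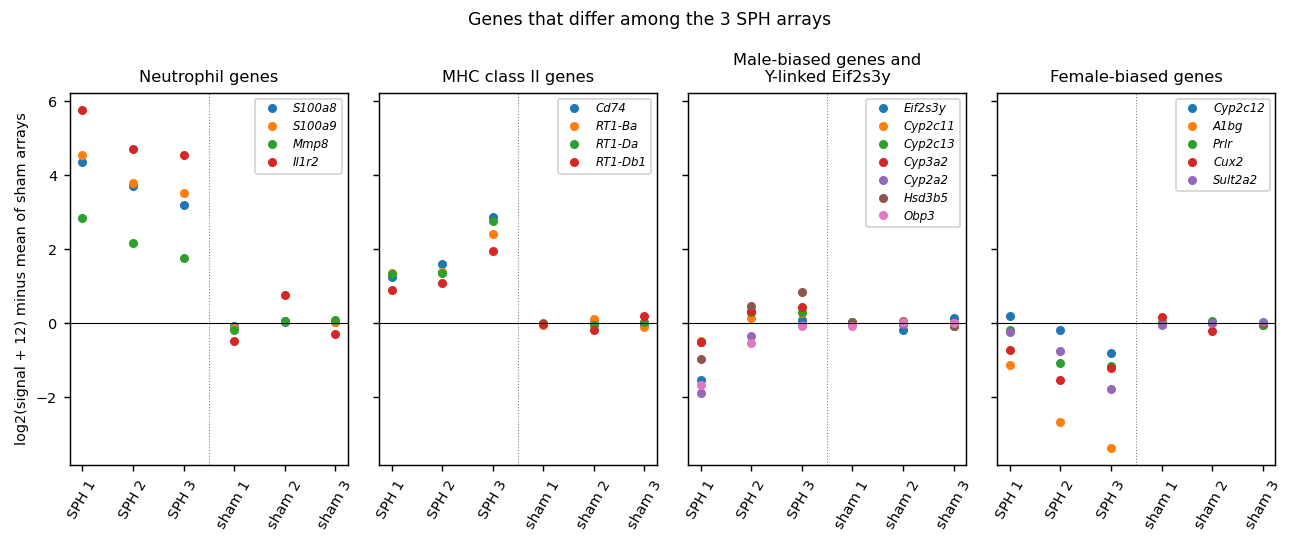
Log2(signal + 12) minus the mean of the 3 sham arrays (y axis) on each SPH and sham array (x axis), 1 point per gene and array, for neutrophil, MHC class II, male-biased with Y-linked Eif2s3y, and female-biased genes. Neutrophil genes are highest on SPH array 1, MHC class II genes on SPH array 3 and the male-biased genes lowest on SPH array 1. The sham arrays lie close together except for Il1r2, which is dim there.

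Many immediate early genes rose, with 8 of 12 in the AP-1 list and 8 of 17 in the Egr and Klf list, and the others were not called. Nr4a1, a nuclear receptor without a known ligand that responds to cAMP and stress, read 9385, 7291 and 8951 on the SPH arrays and 129, 62.1 and 127 on the sham arrays. Its rise was the largest among the called genes whose arrays did not overlap (6.23, SE 0.21, adjusted p = 1.8e-14). Of 12 tested members of the AP-1 family, whose proteins pair to bind DNA at AP-1 sites, 8 rose and 0 fell, with a median of 1.17. Maff, a small Maf protein of that family, read 770, 954 and 1019 in SPH and 24.9, 9.77 and 22.7 in sham (4.92, SE 0.29). The stress factor Atf3 followed at 3.56 and Fosl2 at 2.59. Fos was at 2091, 2004 and 2044 in SPH against 431, 321 and 443 in sham (2.34, SE 0.09), and its arrays within a group differed little. Jun did not reach 2-fold, at 5320, 5149 and 4800 in SPH and 3459, 3373 and 3821 in sham (0.52, adjusted p = 4.14e-07), although another of its probe sets was at 1.16.

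In a list of 17 Egr, Klf, other zinc finger and further early genes, 8 rose and 0 fell, and the median was 0.88. The other 9 were not called, the lowest being Klf15 at -0.7 and Snai1 at -0.63. Egr1, a growth-factor-induced regulator, was at 21029, 19230 and 19730 in SPH and 3680, 3684 and 3669 in sham (2.44, SE 0.04). Klf6 rose by 2.19 and Csrnp1 by 2.08, while Zfp36, which speeds the decay of cytokine mRNAs, rose by 1.26. The list of NR4A receptors and cAMP-responsive genes had 8 of 17 members higher, 0 lower and a median of 0.89. Besides Nr4a1 these included the kinase Sik1 (1966, 1519 and 1546 in SPH, 321, 396 and 310 in sham, 2.25) and the coactivator of gluconeogenic genes Ppargc1a (2.2). Pde4b, a phosphodiesterase that degrades cAMP, rose by 1.69. Brakes on MAP kinase signals were raised as well, with 4 of 13 higher and 0 lower: Dusp2 (2.56), Dusp5 (2.23), Dusp6 (2.07) and Spry4 (1.68). When any single array was left out, 7 or 8 AP-1 genes, 8 Egr and Klf genes, 8 cAMP genes and 4 to 6 of these brakes rose, and 0 fell.

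**Figure D2:**
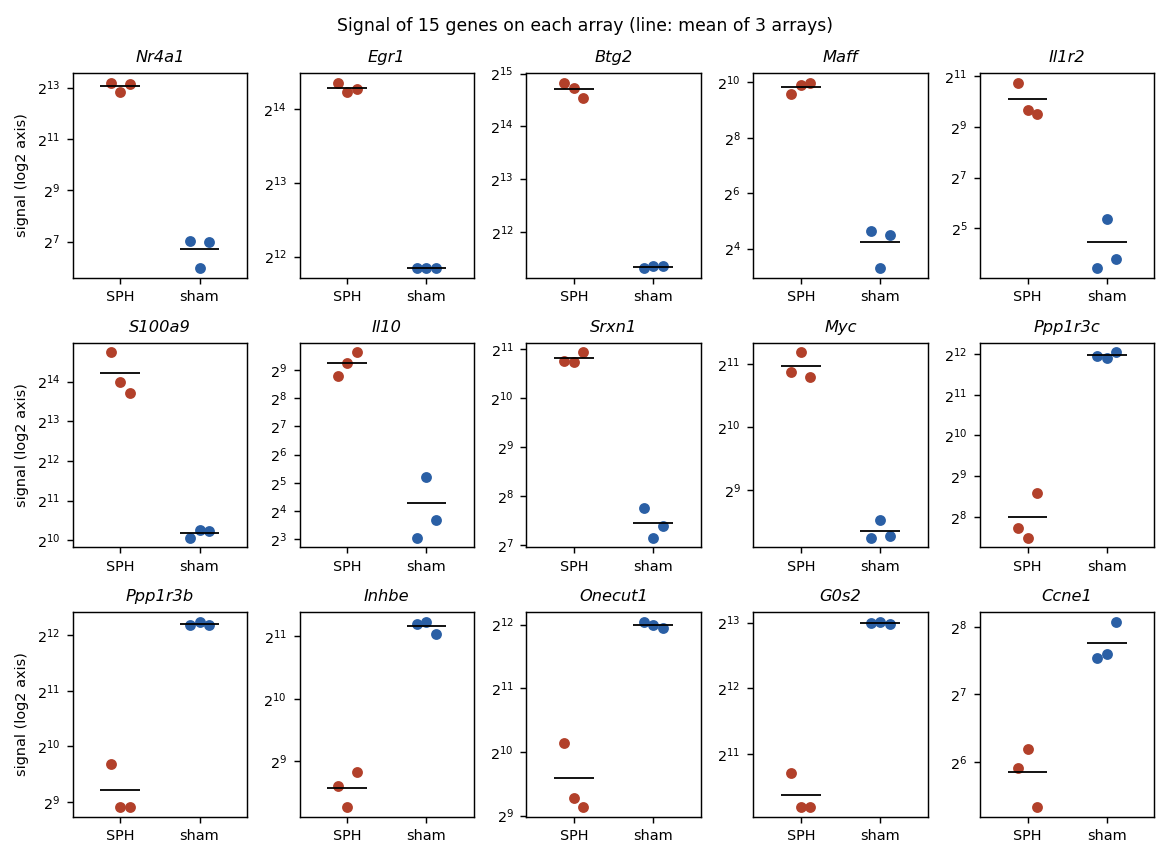
Signal on a log2 axis for 15 genes, 1 panel per gene, with SPH arrays on the left, sham arrays on the right and a line at the mean of 3 arrays. In every panel the 3 SPH points lie on one side of the 3 sham points, for example Nr4a1 at 7291 to 9385 in SPH and 62.1 to 129 in sham. The genes are a choice from the named ones, and the naming rule favoured large changes without overlap. The separation therefore follows at least in part from the choice of genes.

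The promoters of 3 genes that rose and hold a cAMP response element (CRE), the site bound by CREB and ATF proteins, are shown because genes of the cAMP response were among the rises. They were picked by hand from 16 such genes, as ones whose values on every array are given in the text. Each window spans 250 bases before to 50 after the gene's start, read 5′ to 3′ along the gene's strand from RefSeq (build GRCr8), with the CRE letters TGACGTCA in capitals. Maff lies at chr7:112792537-112792836 (+), Btg2 at chr13:48087641-48087940 (-) and Ppp1r15a at chr1:105139547-105139846 (-).
Maff: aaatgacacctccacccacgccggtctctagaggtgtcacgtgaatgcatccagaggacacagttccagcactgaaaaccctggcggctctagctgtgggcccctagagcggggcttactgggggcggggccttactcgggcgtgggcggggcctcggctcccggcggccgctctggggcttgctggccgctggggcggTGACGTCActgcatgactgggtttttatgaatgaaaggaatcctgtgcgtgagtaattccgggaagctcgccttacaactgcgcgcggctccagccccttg
Btg2: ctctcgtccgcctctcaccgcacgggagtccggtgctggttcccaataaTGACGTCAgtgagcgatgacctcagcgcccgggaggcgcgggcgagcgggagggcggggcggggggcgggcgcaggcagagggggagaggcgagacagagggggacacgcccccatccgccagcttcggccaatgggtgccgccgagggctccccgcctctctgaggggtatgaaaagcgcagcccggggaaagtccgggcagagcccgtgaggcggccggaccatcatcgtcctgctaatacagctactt
Ppp1r15a: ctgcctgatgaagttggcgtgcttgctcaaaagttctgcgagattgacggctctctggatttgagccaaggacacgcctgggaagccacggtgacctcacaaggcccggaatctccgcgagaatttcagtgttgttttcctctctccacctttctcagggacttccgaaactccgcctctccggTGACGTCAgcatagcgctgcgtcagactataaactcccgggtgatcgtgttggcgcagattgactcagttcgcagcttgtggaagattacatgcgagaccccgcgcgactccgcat
The element begins at position -51 relative to the start in Maff, -201 in Btg2 and -66 in Ppp1r15a. Each holds 1 copy. On either strand, TGACGTCA stood in the window of 612 of 33469 promoters in the table (1.83%), in 278 of 8803 tested genes with a promoter entry (3.16%), in 16 of 315 such genes that rose (5.08%) and in 8 of 251 that fell (3.19%). The AP-1 letters TGANTCA were in the windows of 38 of the 315 genes that rose (12.1%), 13 of the 251 that fell (5.18%) and 480 of the 8803 tested (5.45%). A match of letters is a description of the sequence and does not show binding. Nr4a1 is not among the 16 genes that rose and hold a CRE in the window.

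Growth control genes moved in both directions. Btg2, an antiproliferative factor, read 29153, 26989 and 23938 in SPH and 2546, 2628 and 2633 in sham (3.35, SE 0.05, adjusted p = 1.55e-19). Myc, which drives entry into the cell cycle, was at 1880, 2342 and 1771 in SPH and 301, 365 and 309 in sham (2.57, SE 0.1). The stress-response genes Gadd45b (2.52) and Gadd45a (1.16) also rose. Cyclin E genes fell: Ccne1, needed to enter S phase, was at 60, 72.8 and 40.1 in SPH and 186, 193 and 270 in sham (-1.72, SE 0.3), and Ccne2 was at -1.32, though not called with a pseudocount of 90. Ccnd1, the G1 cyclin, was at 0.62 (adjusted p = 3.99e-05), under 2-fold. Of 29 genes of S phase and mitosis 0 rose and 3 fell, the nuclease Dna2 (-1.7), the checkpoint kinase Bub1b (-1.53) and the mitotic activator Cdc20 (-1.09). The list's median was -0.31 beside the -0.095 of all genes, and 1 of the 3 fell without sham array 3. With a pseudocount of 90 the list had 0 of 29 lower.

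Among 34 growth factors and receptors 10 rose and 1 fell. Tnfrsf12a, the receptor of the cytokine TWEAK, was at 3975, 4650 and 4646 in SPH against 165, 131 and 190 in sham (4.68, SE 0.11). The urokinase receptor Plaur (2.81) and the matricellular protein Ccn1 (2.96) rose too. Inhbe, a liver-secreted activin subunit, fell to 387, 306 and 453 in SPH, against 2348, 2415 and 2108 in sham (-2.56, SE 0.12). Hgf, the main hepatocyte mitogen, was at 93, 83.3 and 84.7 in SPH and 16.4, 13.3 and 56.1 in sham, a difference of 1.44 that missed the threshold (adjusted p = 0.131). In the growth hormone and IGF list 5 of 18 rose and 0 fell. The binding protein Igfbp1 reached 55859, 57649 and 57010 in SPH, against 22633, 23778 and 23223 in sham (1.29, SE 0.04). Cish, an inhibitor of STAT5 signals, rose by 2.16, the insulin receptor substrate Irs2 by 1.75 and Socs3 by 1.11. Socs3 was at 0.98, under 2-fold, without sham array 2.

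Cytokine and acute phase genes rose in part. In the IL6-STAT3 and acute phase list 8 of 34 rose and 1 fell. Lcn2, a siderophore-binding lipocalin of hepatocytes and neutrophils, was at 3275, 1515 and 1091 in SPH and 81.7, 70.6 and 92.7 in sham (4.25, SE 0.41). The interleukin-1 antagonist Il1rn read 3456, 3143 and 2974 in SPH and 268, 210 and 245 in sham (3.67, SE 0.11). Timp1 (1.64) and the interleukin-1 receptor Il1r1 (1.76) rose as well, and the LIF receptor Lifr fell by 1.91. The protease inhibitor A2m read 1772, 2862 and 1660 in SPH and 770, 992 and 920 in sham (1.18), and without SPH array 2 the difference was 0.94. Several abundant acute phase proteins were close to the hepatocyte markers, with Hp at 0.25, Fgb at 0.3 and Crp at 0.28. Others stood higher without being called, with Lbp at 0.93, Hamp at 0.91 and Serpina3n at 0.45. The transcript of Il6 itself was too dim to be tested, and Tnf overlapped between groups (85.4, 31.4 and 78.1 in SPH, 75.4, 16.3 and 28 in sham, adjusted p = 0.383).

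Of 19 NF-kB targets and cytokine genes 8 rose and 0 fell, among them the adhesion molecule Vcam1 (2.35) and the kinase Map3k8 (1.92). Outside the lists the anti-inflammatory cytokine Il10 read 440, 605 and 792 in SPH and 8.3, 36.7 and 13 in sham (4.38, SE 0.32). Of 23 chemokines 6 rose and 0 fell. Cxcl2, which attracts neutrophils, was at 1619, 891 and 550 in SPH and 52.7, 79.9 and 67.1 in sham (3.59, SE 0.27). Ccl2, a monocyte attractant, was at 277, 86.8 and 133 in SPH and 17.4, 17.2 and 5.93 in sham (2.69). Both were highest on SPH array 1, and neither overlapped with sham.

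Neutrophil genes formed the list with the highest median, 2.37, with 9 of 12 tested members higher and 0 lower. S100a9, which with S100a8 makes up the calprotectin of neutrophil cytoplasm, read 27480, 16381 and 13424 in SPH and 1068, 1228 and 1205 in sham (3.95, SE 0.15, adjusted p = 1.45e-13). The decoy interleukin-1 receptor Il1r2 read 1720, 812 and 726 in SPH and 10.7, 41.8 and 13.8 in sham (5.01, SE 0.37). The summed signal of the 12 genes was 48439, 29048 and 22457 in SPH and 2521, 2759 and 2701 in sham. Without SPH array 1, the highest, 9 of 12 still rose, with a median of 2.16. The collagenase Mmp8 (2.26), the chemokine receptor Cxcr2 (3.16) and the G-CSF receptor Csf3r (2.45) were among them. The granule gene Camp was too dim to be tested, and Mpo, Elane and Ltf had no probe set naming them alone. In these bulk samples a change in the number of cells of a type and a change in RNA per cell cannot be told apart.

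Other cell markers moved less. Of 16 macrophage and Kupffer cell markers 3 rose (Itgam 1.7, Fcgr3a 1.22, Mpeg1 1.22) and 0 fell, with a median of 0.64, and their summed signal was 76872 to 84950 in SPH and 51873 to 54178 in sham. MHC class II genes had 4 of 9 higher and 0 lower. The invariant chain Cd74 was at 6549, 8276 and 20112 in SPH and 2670, 2870 and 2614 in sham (1.92, SE 0.23), with its highest value on SPH array 3. Without that array the difference of Cd74 was 1.43, that of RT1-Da 1.34 against 1.82 with it, and that of RT1-Db1 0.99, so that 3 of 9 rose. RT1 genes belong to a multigene family, so their probe sets may mix members. T and NK cell markers had 3 of 20 higher (1 without sham array 1) and 0 lower. Stellate and fibroblast markers had 4 of 18 higher (2 with a pseudocount of 90) and 1 lower, the dim Gfap, which was not called without any 1 of 5 arrays. Endothelial markers had 1 of 12 higher, and 0 without SPH array 3, without sham array 2 or with a pseudocount of 90. Of B cell, cholangiocyte, red cell and platelet markers 0 of 6, 0 of 6, 0 of 5 and 0 of 4 were called.

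Interferon-induced genes had 6 of 30 higher and 1 lower. Ifit3, an antiviral RNA-binding protein, was at 1753, 903 and 666 in SPH and 274, 189 and 225 in sham (2.11, SE 0.23). Its promoter window, chr1:241527076-241527375 (+), is shown because it holds an interferon-stimulated response element, in capitals from position -44. As searched, on either strand, it consists of GAAA, any 2 bases and GAAA again, and here it stands on the reverse strand.
Ifit3: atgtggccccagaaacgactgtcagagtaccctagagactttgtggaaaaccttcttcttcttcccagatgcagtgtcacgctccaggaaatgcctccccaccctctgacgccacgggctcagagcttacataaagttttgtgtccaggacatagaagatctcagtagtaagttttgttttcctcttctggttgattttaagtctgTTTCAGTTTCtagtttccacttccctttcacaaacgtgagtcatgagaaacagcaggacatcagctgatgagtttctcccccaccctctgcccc
This element was found in 14 of the 315 genes that rose (4.44%), 12 of the 251 that fell (4.78%) and 278 of the 8803 tested (3.16%). Ifih1, an RNA sensor, rose by 1.21 and Oasl by 1.13, with Oasl at 0.82 and not called without SPH array 1. With that array left out 4 of the 30 rose. Mx2, another interferon-induced gene, was at 515, 1436 and 269 in SPH and 2538, 2483 and 1972 in sham (-1.96, SE 0.34), although another probe set of Mx2 rose by 1.89, so the direction of this gene is not settled.

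Stress genes were raised in a selective way. Of 28 genes of the integrated stress and unfolded protein response 6 rose and 0 fell, among them Atf3, which is counted in the AP-1 list as well. Ppp1r15a, which directs a phosphatase to the translation factor eIF2, was at 2176, 2432 and 2291 in SPH and 399, 468 and 485 in sham (2.32, SE 0.08). Chac1, which degrades glutathione, rose by 1.61, the kinase-like Trib3 by 1.51 and the cystine carrier Slc7a11 by 1.92. The chaperone Hspa5 was at 0.21. Of 18 heat shock chaperones 1 rose (Hspb8, 1.17). Among 20 NRF2 and heme oxygenase genes 4 rose, Slc7a11 again among them, with a list median of -0.01. Srxn1, which restores oxidised peroxiredoxins, read 1724, 1698 and 1954 in SPH and 218, 142 and 169 in sham (3.28, SE 0.12). Bach1, a repressor of the heme oxygenase gene, was at 3, and Hmox1 itself at 0.94 (adjusted p = 4.66e-10).

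**Figure D3:**
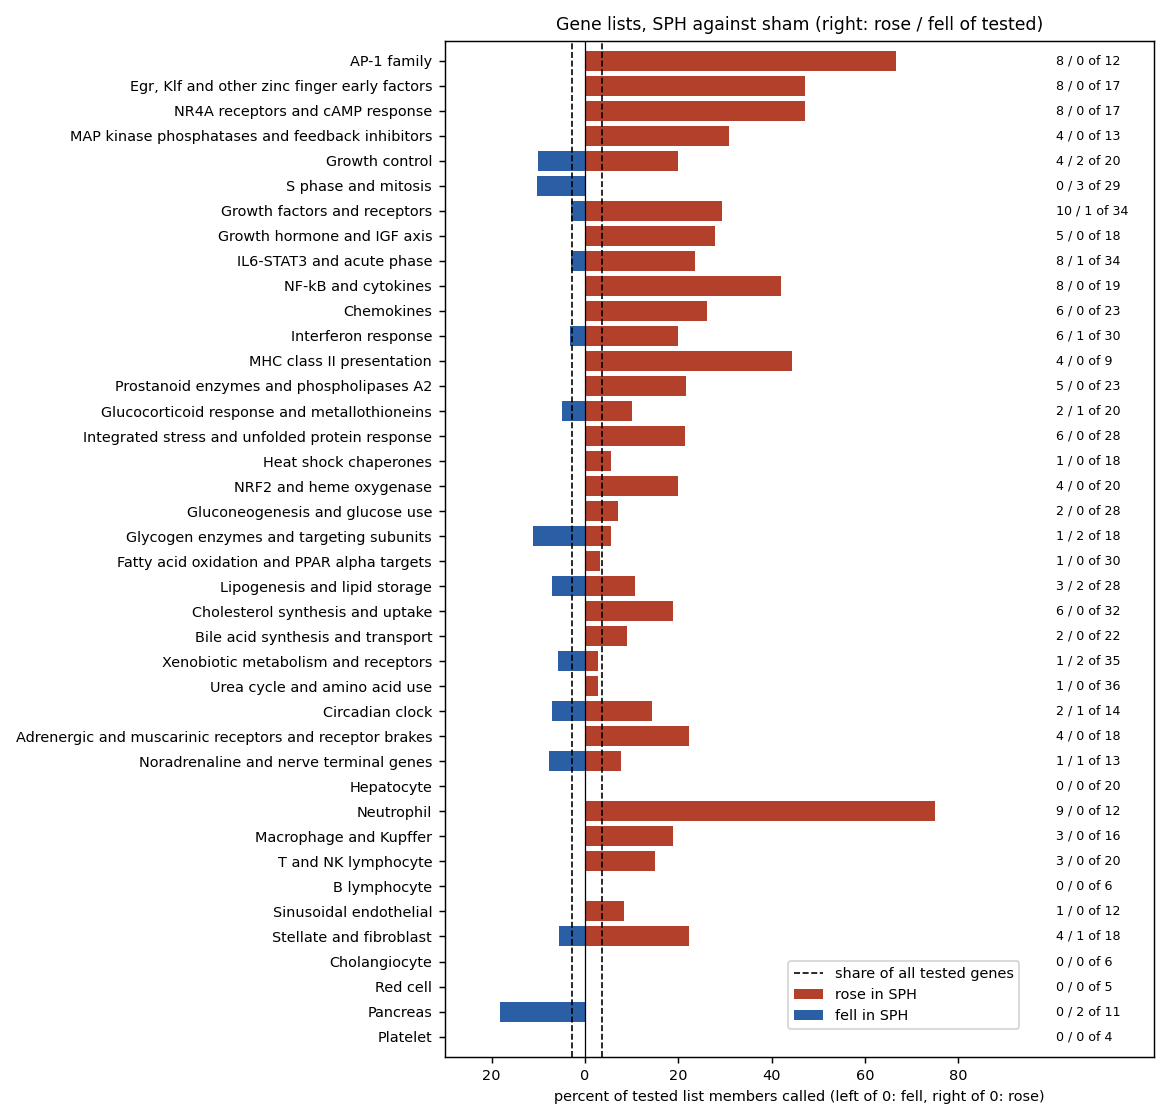
Percent of the tested members of each gene list that rose (right of 0) or fell (left of 0) in SPH against sham, with the counts at the right edge. The dashed lines mark the share of all tested genes, 3.76% risen and 2.86% fallen, and the neutrophil and AP-1 lists extend farthest beyond them, with 9 of 12 and 8 of 12 risen.

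In the metabolic lists few members were called. Of 18 glycogen genes 2 fell, both of them subunits that carry protein phosphatase 1 to glycogen, and 1 such subunit rose, Ppp1r3d, which was not called without SPH array 1, sham array 1 or sham array 3. Ppp1r3c read 212, 179 and 382 in SPH and 3963, 3861 and 4236 in sham (-3.97, SE 0.16, adjusted p = 3.54e-13). A further probe set for it fell by 2.17. Ppp1r3b, the main hepatic subunit of this kind, was at 822, 481 and 479 in SPH and 4633, 4849 and 4666 in sham (-3.01, SE 0.13). In both the groups were far apart. The glycogen enzymes were not called, with synthase Gys2 at 0.26 and phosphorylase Pygl at 0.43. Of 28 genes of gluconeogenesis and glucose use 2 rose (Ppargc1a and the glycolytic regulator Pfkfb3, 2.28) and 0 fell. G6pc1, which releases free glucose, was at 18155, 15421 and 19223 in SPH and 26924, 25903 and 26060 in sham (-0.58, adjusted p = 1.08e-06), and Pck1, which commits carbon to gluconeogenesis, was at 0.16, both under 2-fold.

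Cholesterol genes moved in the same direction where called: 6 of 32 rose and 0 fell. Among them were the sterol carrier Stard4 (1.59), the oxygenase Sqle (1.48) and the cyclase Lss (1.19). Without SPH array 1, 4 of 32 rose, and Lss was at 1 and not called. The other 26 genes were not called, such as Hmgcs1 at -0.06, Idi1 at 0.03 and Cyp51 at 0.01.

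In lipogenesis and lipid storage 3 of 28 genes rose (1 without sham array 2 or with a pseudocount of 90) and 2 fell. G0s2, an inhibitor of the main triglyceride lipase, was at 1672, 1172 and 1169 in SPH and 8166, 8272 and 8101 in sham (-2.62, SE 0.09), without overlap. Pnpla3, a lipid droplet protein, rose by 1.87. The fatty acid synthase Fasn was at 0.92, under 2-fold. Fatty acid oxidation had 1 of 30 higher (Ppara, 2.26) and 0 lower. In the bile acid list 2 of 22 rose: Nr0b2, a receptor that represses bile acid synthesis (1.4), and the phospholipid exporter Abcb4 (1.04, and not called with quantile normalization or without sham array 2). Cyp7a1, which starts the making of bile acids from cholesterol, overlapped between groups, at 10509, 9201 and 9696 in SPH and 10221, 9986 and 9944 in sham. Of 35 xenobiotic genes 2 fell (1 without SPH array 2), Cyp3a9 (-1.2) and the receptor Nr1i3 (-1.71), and Tiparp rose (1.58). Among 36 genes of the urea cycle and amino acid use the 1 that rose was the amino acid carrier Slc38a2 (1.29).

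Genes that receive or end nerve signals were examined because the sympathetic supply had been cut. Of 18 adrenergic and muscarinic receptors and receptor brakes 4 rose and 0 fell, and those were brakes rather than receptors. Rgs1, which shortens G protein signals, was at 1969, 1277 and 1772 in SPH and 71.1, 85 and 21.9 in sham (4.67, SE 0.41), Gem at 3.79, Rgs2 at 1.51 and the receptor kinase Grk5 at 1.12. The receptor Adra1b, abundant in hepatocytes, overlapped (3156, 1781 and 2188 in SPH, 2345, 3382 and 2968 in sham). Of 13 tested nerve terminal genes, a list in which the noradrenaline carrier Slc6a2 was too dim to test, 1 rose and 1 fell. The riser, the noradrenaline-making enzyme Dbh, overlapped between groups and was not called in several settings, among them without any 1 of the 3 SPH arrays. The neurotrophin Ntf3 was at 180, 172 and 13.8 in SPH and 865, 690 and 702 in sham (-2.97, SE 0.45), and at -2.02 without SPH array 3.

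Among genes outside these groups, Onecut1 (HNF6), a hepatocyte factor, read 1124, 618 and 559 in SPH and 4234, 4085 and 3929 in sham (-2.46, SE 0.15). Serpinb9b, a serpin, fell to 48.7, 25.6 and 66.4 in SPH, against 879, 963 and 930 in sham (-4.05). The zinc finger gene Zfp354a was at -2.23, and Tsc22d3 (GILZ), a target of glucocorticoids, at -1.49. In the list of 20 glucocorticoid-responsive genes and metallothioneins it was the 1 that fell (2 fell without any 1 of the SPH arrays), and 2 rose, Lcn2 (4.25) and the kinase Sgk1 (1.47). The other 17 were not called and lay between Angptl4 at -0.98 and Tat at 0.89, with a list median of 0.12. Pancreas markers had 2 of 11 lower, among them the carboxypeptidase Cpa1 (-2.23), and 0 higher, with a list median of -0.05. Other members leaned the other way without being called. With single arrays left out, Prss1 was at 0.67 to 1.7, Ctrc at 0.51 to 1.67 and Cpb1 at 0.18 to 1.49. Without SPH array 2, sham array 2 or sham array 3, 1 of the 11 rose.

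The difference between SPH and PH was tested next, because PH arrays share the hepatectomy and keep the nerves. Against PH, 99 genes were higher in SPH (0.863% of those tested) and 42 lower (0.366%), or 208 probe sets higher (0.94%) and 121 lower (0.547%). With each array's median set to 0 these probe sets numbered 152 and 153, and with quantile normalization 153 and 140. Of the 432 genes that rose against sham, 45 (10.4%) were also higher in SPH than in PH and 2 were lower, while 385 were not called. Of the 328 that fell, 26 (7.93%) were also lower than in PH and 0 were higher. Among the lists, 6 of 12 neutrophil genes were higher in SPH than in PH, and so were 4 of 30 interferon genes, 2 of 16 macrophage genes and 2 of 20 NRF2 genes. In the S phase and mitosis list 2 of 29 were higher in SPH than in PH, Ccnb1 and Kif20a, and the median difference from PH was 0.43, above 0, while that from sham was below 0 (-0.31). Of 11 pancreas genes 2 were lower in SPH than in PH. AP-1, Egr, NF-kB and chemokine members had 0 calls against PH. Fos, for example, differed from PH by -0.27 and Egr1 by 0.29.

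Against the other denervated groups, 120 genes were higher (1.05%) and 148 lower (1.29%) in SPH than in VPH, and 75 were higher (0.653%) and 98 lower (0.854%) than in TDPH. In probe sets these were 327 higher (1.48%) and 287 lower (1.3%) than in VPH, and 120 higher (0.542%) and 247 lower (1.12%) than in TDPH. All of these comparisons share the SPH arrays, so agreement between them is not independent. Genes called the same way against PH, VPH and TDPH numbered 10 higher and 17 lower. Nr4a1 was higher by 1.63, 2.26 and 1.39 than in PH, VPH and TDPH, whose arrays read 2642 to 2892, 1744 to 1800 and 3160 to 3302, all below the 7291 to 9385 of SPH. Il1r2, Mmp8, the cystatin-like Stfa2l3 and the annexin Anxa1 were also among the 10, each highest on SPH array 1. The TGF-beta receptor Tgfbr2 was at 249, 238 and 227 in SPH and between 17.8 and 93.1 in PH, VPH and TDPH, and the dicarboxylate carrier Slc13a3 was higher by 1.08, 1.17 and 1.59 while 0.5 above sham. LOC362795 and LOC690948 were also among the 10, both highest on SPH array 3, and without it LOC690948 was no longer called against sham.

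**Figure D4:**
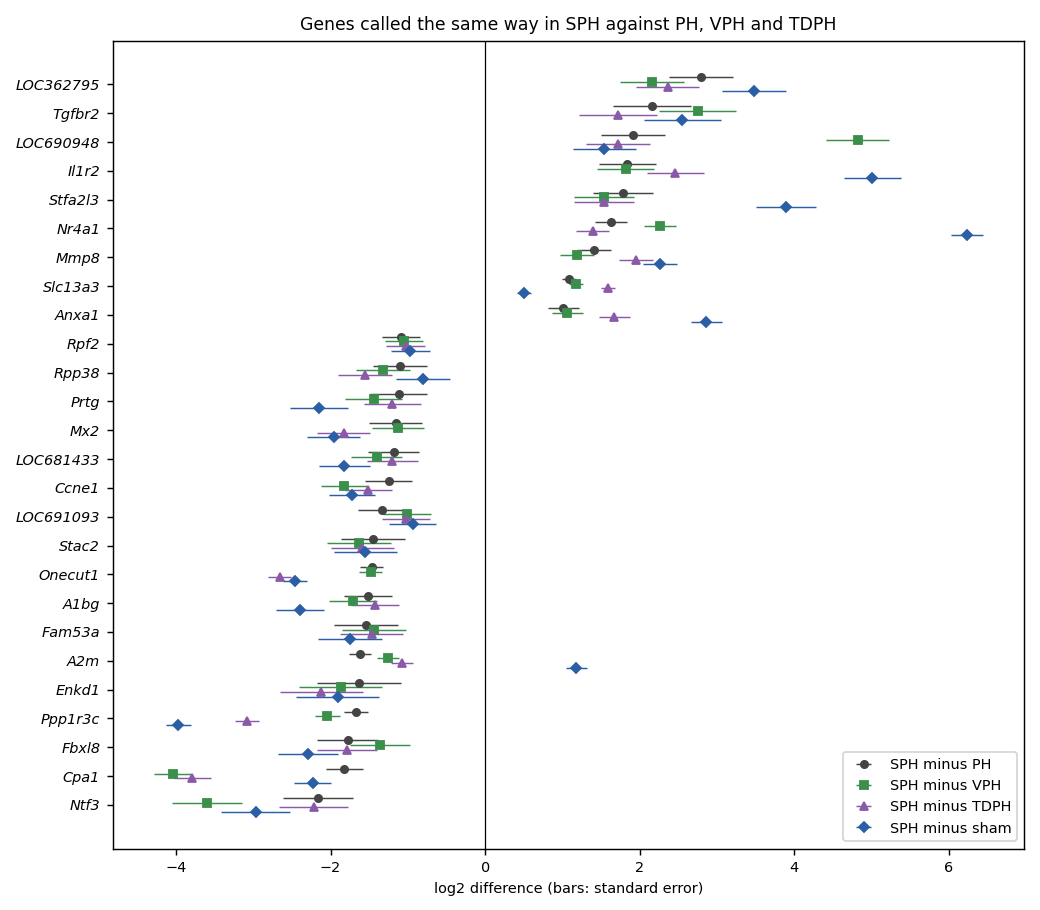
Log2 difference with its standard error (x axis) of SPH from PH, VPH, TDPH and sham for 26 of the 27 genes (y axis) called the same way against PH, VPH and TDPH. The 9 upper genes lie right of 0 and the 17 lower ones left of 0 for all 3 of those groups by the choice of genes, and A2m is the one lower gene that stands above sham (1.18).

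Of the 17 lower genes, Ppp1r3c differed from PH by -1.67, from VPH by -2.04 and from TDPH by -3.08, with arrays at 742 to 926, 1032 to 1062 and 1990 to 2338 in those groups. For Onecut1 the differences were -1.47, -1.48 and -2.66, and TDPH (4564 to 4880) was above sham. Ccne1 differed by -1.25, -1.83 and -1.51. A2m differed by -1.62, -1.26 and -1.08 although it stood above sham. Ntf3, Cpa1 and A1bg were also among the 17, with A1bg subject to the spread described above, and Mx2 to its disagreeing probe sets. The other 9, Fbxl8, Fam53a, Enkd1, LOC691093, Prtg, Stac2, LOC681433, Rpp38 and Rpf2, were dim, with the highest SPH value 288 (Fam53a).

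Some genes higher in SPH than in PH were not called against TDPH, the group with total denervation. Examples are given here without a count over all such genes, and a missing call does not show that groups are alike. Chac1 was above PH by 1.17, VPH by 1.13 and TDPH by 0.04, and Ifit3 by 1.64, 1.26 and 0.31 in the same order. Srxn1 was above PH by 1.15, with 0.56 over VPH and 0.05 over TDPH, and the macrophage pore protein Mpeg1 by 1.13, 0.74 and -0.04. Srxn1 and Mpeg1 were therefore not called against VPH either, in which the sympathetic supply was not the nerve cut. The part of the nerve section in these differences was not tested.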

How the data were processed

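Liver RNA of 6 groups was measured on 18 arrays (Rat Genome 230 2.0). The deposited table holds a signal intensity per probe set and array on a linear scale, made with GCOS 2.0 per the submitters' processing notes. The authors' deposited log2 ratios against normal liver, per the file headers, served as an alternative, and their linear ratios were not used. From the intensities log2(signal + 12) was taken without further normalization. The 57 controls were left out, as were probe sets not above an array's 40th percentile on 3 or more arrays. limma 3.58.1 (R 4.3.3, trended eBayes, two-sided) fitted all groups together, with Benjamini-Hochberg adjustment over the probe sets of a comparison. The script was tested on simulated data.

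Each gene took its probe set of highest mean log2 signal among those naming it alone. Symbols were updated through a RefSeq table, and 343 probe sets with several symbols and 10791 with none stayed unnamed. The naming rule took the 20 largest rises and falls without overlap, the 6 largest differences in each list, a fixed set of genes, the 10 widest SPH ranges, the 8 largest differences each way from PH, VPH and TDPH, and genes called against all 3. Some genes that the rule names are not reported here. Other list members that missed the call, and the sex-biased set, were picked after their values were seen. The comparison, lists and rule were chosen with earlier results of these data known. Same-numbered SPH and sham arrays did not deviate together (r = -0.023, 0.019 and 0.006). Alternatives were quantile and median scaling, a pseudocount of 90, other filters, a fit on the compared groups, array weights, eBayes without trend, a replicate block, leaving out each array and the deposited log2 ratios.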

Additional observations from a re-analysis of the deposited data

How the results depend on the processing

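The number of arrays, all called technical replicates, limits every value. Whether spread between animals enters was not tested, because the array labels do not tell which animal each RNA came from. With the pseudocount at 90 in place of 12, 459 probe sets were higher and 236 lower in SPH than in sham, 73 and 32 than in PH, 99 and 72 than in VPH, and 61 and 62 than in TDPH. With probe sets above the 60th percentile alone, 442 were lower than in sham, 129 higher and 69 lower than in PH, 185 and 149 than in VPH, and 147 lower than in TDPH. Fitting the compared groups alone gave 690 higher and 603 lower than sham, against 774 and 777 with all groups. The same setting gave 121 higher and 48 lower than PH, 173 lower than VPH and 112 lower than TDPH. Array quality weights gave 127 higher than PH and 73 higher than TDPH. Leaving out 1 array gave 745 to 801 higher and 671 to 845 lower than sham, 191 to 255 and 92 to 194 for PH (194 without SPH array 3), 255 to 385 and 181 to 357 for VPH (183 and 181 lower without VPH arrays 2 and 3), and 94 to 130 and 180 to 349 for TDPH. Same-numbered arrays share only a number. The replicate block gave 775 higher and 768 lower than sham, against 774 and 777 without it. Quantile normalization gave 153 higher and 140 lower than PH and centred arrays 152 and 153, against 208 and 121 as deposited. Of 304 named genes, 0 changed the sign of a called difference under the alternatives run. The calls lost numbered 27 with the pseudocount of 90, 16 with the compared groups alone, 13, 8 and 12 without SPH arrays 1, 2 and 3, and 10, 12 and 6 without sham arrays 1, 2 and 3. In the authors' deposited table, 760 of 760 called genes had the same sign and 645 differed by 1 or more the same way; this alternative was chosen after seeing the data, as were the counts of lists without single arrays.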

Other observations

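Of further genes that rose in SPH against sham and are in none of the lists, 4 are given here, picked after their values were seen. Thbd, the endothelial thrombin receptor thrombomodulin, read 3609, 3181 and 3507 in SPH and 199, 255 and 265 in sham (3.78, SE 0.09), and others of its probe sets were at 3.65 and 2.64. The scavenger receptor Olr1 was at 422, 338 and 270 in SPH and 3.67, 23.7 and 2.64 in sham (4.12), and the ficolin Fcnb at 795, 482 and 494 in SPH and 32.6, 33.3 and 27.4 in sham (3.77). The secreted glycoprotein Chi3l1 was at 1500, 1192 and 881 in SPH and 110, 103 and 62.3 in sham (3.54). In all 4 genes the SPH arrays lay above the sham arrays. This adds no support, since the genes were picked with their values known and the naming rule favoured large rises without overlap.

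Clock genes were called in both directions. Bhlhe40, a repressor within the clock, was at 5964, 5404 and 4657 in SPH and 1294, 1458 and 1427 in sham (1.92, SE 0.08), and the nuclear receptor Rora was at 3124, 3224 and 3198 in SPH and 854, 1041 and 849 in sham (1.79, SE 0.08). Tef was at 300, 308 and 76.1 in SPH and 651, 445 and 440 in sham (-1.32), and was not called without SPH array 3. The labels do not give the time of day at sampling.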
